A study of Homo sapiens with 20 samples.

Results

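The response of si-control T47D cells to 6 h of the synthetic progestin R5020 was examined gene by gene. The comparison holds the 4 RNA-seq libraries labelled si-control, 2 at T6 and 2 at T0, out of 20 samples in the series and out of 16 RNA-seq libraries with an siRNA. T47D is an established human breast cancer line of luminal type that carries the oestrogen and progesterone receptors. The T6 group had been exposed to 10 nM R5020 for 6 h, and the T0 group was taken before hormone, for which the labels name no vehicle. Both groups had received the control siRNA and had been kept in hormone-depleted medium and then without serum overnight. The 12 libraries of si-BRG1, si-CBX3 and si-FOXA1 cells, 1 library per time without siRNA, and BRG1 ChIP-seq peak lists at 30 min and at 0 min were used only for comparison.

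The progesterone receptor is a ligand-activated transcription factor. On binding a progestin it enters chromatin at hormone response elements, which it shares in large part with the glucocorticoid and mineralocorticoid receptors, and genes near such sites can be raised or lowered. In the breast, progestins are known for driving branching and alveolar growth, partly through signals that pass between cells, such as RANKL and WNT4.

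Between 58296067 and 66980856 fragments were assigned to genes in each si-control library, and between 50017255 and 74374857 over all 16. Levels are given in CPM, counts per 1000000 fragments, scaled by the trimmed mean of M values (TMM), always in the order replicate 1, replicate 2. Log2 fold changes are T6 over T0, from edgeR's quasi-likelihood fit over all 16 libraries. Standard errors (SE) were derived as the absolute log2 fold change divided by the square root of the test's F statistic. A gene was called at a Benjamini-Hochberg adjusted p below 0.05. Whether the replicates were separate cultures is not said in the labels, and the p-values therefore cover the spread between these 4 libraries and the other pairs, which may be technical. The libraries of T0 differed from each other more than those of T6 did: over 9723 genes the log2 difference had an SD of 0.118 between the T6 libraries and 0.184 between the T0 libraries. Interferon-stimulated genes marked T0 replicate 1. The summed level of 15 of them was 3684 and 3343 CPM at T6 against 5862 and 2804 CPM at T0, and 14 of the 15 were highest in T0 replicate 1. In this bulk RNA, fewer cells of a type and less RNA per cell cannot be told apart.

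Of 18806 genes tested, 7070 were called (37.6%), 3665 of them higher at T6 (19.5%) and 3405 lower (18.1%). In 7061 of the 7070 the libraries of the 2 times did not overlap, so such separation was usual for a called gene. A change of at least 2-fold was seen in 1014 genes called higher (5.39%) and in 784 called lower (4.17%). The median log2 fold change over all genes tested was -0.02. Among genes with a mean log2 CPM of at least 3, 396 rose and 188 fell by at least 2-fold. With a CPM of at least 1 required in 2 si-control libraries, 3156 of 12997 genes were called higher and 3385 lower. The gene lists below were not matched for expression level to all genes tested, and its part in their shares was not tested. Their members were chosen with earlier results of these data known, so the shares only describe the lists.

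The response markers SGK1 and FKBP5 rose, and the marker AMIGO2 fell. SGK1 (ENSG00000118515.7, hg19 chromosome 6, 134490384 to 134639250), a kinase that raises sodium channel activity, had 32.4 and 30.1 CPM at T6 against 0.580 and 0.410 CPM at T0. FKBP5 (ENSG00000096060.10, hg19 chromosome 6, 35541362 to 35696360), a co-chaperone that dampens steroid receptor activity, had 1140.3 and 1030 CPM at T6 against 79.3 and 74.8 CPM at T0. AMIGO2, a cell adhesion protein, had 7.37 and 8.44 CPM at T6 against 94.9 and 96.8 CPM at T0. The libraries of the 2 times did not overlap for any of these genes, and the changes passed edgeR's test with adjusted p of 8.08e-14, 1.76e-15 and 8.26e-14.

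Luminal markers were expressed at both times, and most of them were lower at T6. The luminal markers summed to 9426 and 9637 CPM at T6 against 10878 and 10940 CPM at T0, with KRT8, a luminal keratin, at 2246 and 2434 CPM against 2447 and 2511 CPM. Of the 12 luminal markers 1, KRT19, was called higher and 9 lower (18.1% lower over all genes), 4 of them by at least 2-fold, with a median log2 fold change of -0.57, and KRT19 was not called without T0 replicate 1 (8 lower) or without T6 replicate 2 (6 lower). The 9 basal and myoepithelial markers summed to 12.9 and 13.5 CPM at T6 against 21.2 and 17.5 CPM at T0. Markers of other cell types were at or near 0: 3 of 9 leukocyte markers passed the filter on low counts and summed to 0.963 and 0.948 CPM at T6 against 1.11 and 1.01 CPM at T0, and 2 of 6 endothelial markers passed and summed to at most 0.205 CPM in any library. Of 8 fibroblast markers 3 passed, and among them COL1A1, which encodes a collagen chain, was not near 0, at 38.8 and 40.7 CPM at T6 against 42.2 and 36.6 CPM at T0.

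**Figure D1:**
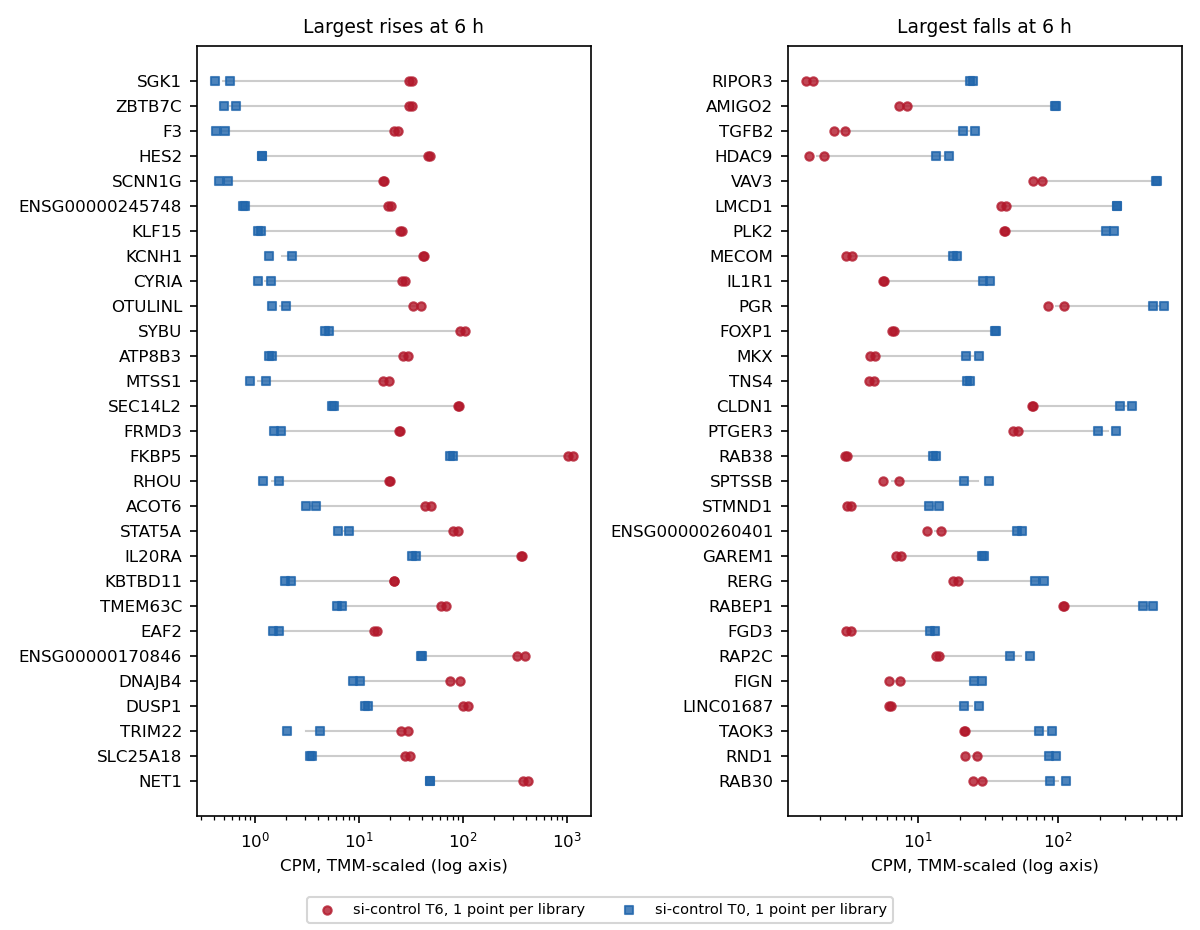
Levels of 29 of the 30 genes that rose most and 29 of the 30 that fell most, in TMM-scaled CPM on a log axis, with 1 point per si-control library and a grey line joining the group means. T6 libraries are red circles and T0 libraries blue squares. The points of the 2 times stay apart for each gene, as the rule for choosing them required.

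Promoter windows are shown for FKBP5 and DUSP1 among the rises and PLK2 among the falls, because the 5 prime end of each gene lay inside a BRG1 peak at 30 min of hormone. They were chosen after their values were seen. The ends of KCNH1, ACOT6, MECOM and SPTSSB also lay inside such a peak, and their windows, which are not printed, held 0 of the hexamers searched. In hg19 the FKBP5 end at 35696360 of chromosome 6 lay in the peak chr6:35693131-35696411. The DUSP1 end lay in chr5:172197113-172198899, and the PLK2 end in chr5:57752733-57757174. The sequences are those of RefSeq on GRCh38.p14, from 250 bases before to 50 bases after each gene's start, 5 prime to 3 prime on the gene's strand: chr6:35728534-35728833 for FKBP5, chr5:172771146-172771445 for DUSP1 and chr5:58460037-58460336 for PLK2, all on the minus strand. RefSeq starts may differ from the ends of the gene models counted here. Capitals mark TGTTCT, the hexamer arm of the consensus element of this receptor class, or AGAACA, its other strand.
FKBP5: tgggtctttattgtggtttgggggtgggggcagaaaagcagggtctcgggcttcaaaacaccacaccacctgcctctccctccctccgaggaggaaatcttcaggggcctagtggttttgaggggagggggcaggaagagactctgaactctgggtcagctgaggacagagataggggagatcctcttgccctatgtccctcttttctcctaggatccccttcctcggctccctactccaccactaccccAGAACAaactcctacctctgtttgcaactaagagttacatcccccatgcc
DUSP1: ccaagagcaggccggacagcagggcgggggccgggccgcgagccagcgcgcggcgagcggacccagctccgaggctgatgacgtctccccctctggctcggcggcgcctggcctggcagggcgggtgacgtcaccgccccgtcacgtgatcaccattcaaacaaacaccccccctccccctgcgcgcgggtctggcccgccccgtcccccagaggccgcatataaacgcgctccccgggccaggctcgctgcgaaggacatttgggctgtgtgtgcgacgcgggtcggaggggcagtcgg
PLK2: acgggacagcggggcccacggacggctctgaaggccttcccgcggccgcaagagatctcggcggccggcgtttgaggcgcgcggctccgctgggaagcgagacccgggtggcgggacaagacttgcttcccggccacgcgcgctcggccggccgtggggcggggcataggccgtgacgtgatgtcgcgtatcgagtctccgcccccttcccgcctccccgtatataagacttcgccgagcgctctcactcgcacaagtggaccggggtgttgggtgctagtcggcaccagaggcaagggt
The FKBP5 window held 1 hexamer and the DUSP1 and PLK2 windows held 0. The palindrome GNACANNNTGTNC, which reads the same on both strands, was in 0 of the 43 promoter windows matched to the 60 largest changes. It was in 0.215% of 2796 windows of genes called higher, 0.241% of 2487 windows of genes called lower, 0.168% of 7159 windows of genes not called, 0.193% of 12441 windows of all genes tested and 0.388% of all 27305 RefSeq windows. The hexamer, on either strand, was in 8.58% of windows of genes called higher, 9.17% of those called lower, 9.62% of those not called, 9.29% of all genes tested and 14.9% of all RefSeq windows. Such a match describes these letters in this window and is not a binding site.

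SCNN1G and IL20RA were among the 30 genes that rose most. SCNN1G, the gamma subunit of the epithelial sodium channel, had 17.3 and 17.1 CPM at T6 against 0.455 and 0.547 CPM at T0, a rise of 34.3-fold (log2 5.10, SE 0.15, adjusted p 1.22e-13 by edgeR). IL20RA, a receptor subunit for cytokines of the IL-10 family, had 358.6 and 364.2 CPM at T6 against 32.2 and 35.6 CPM at T0 (log2 3.41, SE 0.07). For both, each T6 library lay above each T0 library, as the rule for choosing them required. SYBU, which links cargo to kinesin, rose by 4.32 on the log2 scale, MTSS1, an actin-binding membrane protein, by 4.08, RHOU, an atypical small GTPase, by 3.75, and NET1, a guanine nucleotide exchange factor, by 3.05. TRIM22, an interferon-inducible antiviral gene, had 29.4 and 25.4 CPM at T6 against 4.19 and 2.02 CPM at T0, with a log2 fold change of 3.13 that was 3.76 without T0 replicate 1. The part of the interferon signal in its T0 value was not tested.

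RIPOR3, CLDN1 and FOXP1 were among the 30 genes that fell most. RIPOR3, a gene of the RIPOR family, had 1.59 and 1.78 CPM at T6 against 24.7 and 23.7 CPM at T0, a fall of 14.4-fold (log2 -3.84, SE 0.14, adjusted p 1.26e-12 by edgeR). CLDN1, a tight junction protein, had 65.3 and 66.5 CPM at T6 against 276.9 and 335.8 CPM at T0 (log2 -2.22, SE 0.08). FOXP1, a forkhead transcription factor, had 6.57 and 6.77 CPM at T6 against 35.8 and 35.4 CPM at T0 (log2 -2.42, SE 0.10). In these genes the T6 libraries were the low ones, as the rule for choosing them required, and lay close together. PTGER3, a prostaglandin E2 receptor, fell by 2.18 on the log2 scale, TNS4, a tensin of focal adhesions, by 2.31, RERG, an oestrogen-regulated Ras-like growth inhibitor, by 2.00, and RND1, an atypical small GTPase, by 1.93. The 30 largest falls spanned 3.75-fold to 14.4-fold, and the 30 largest rises 8.30-fold to 62.4-fold.

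Levels were also measured per length, as CPM per kilobase of exon (FPKM), and ranked by the gain or loss. GLUL, glutamine synthetase, had 2671 and 2507 CPM at T6 against 354.0 and 368.3 CPM at T0, and 286.6 FPKM at T6 against 39.99 FPKM at T0. DYNLL1, a dynein light chain, had 1065 and 981.5 CPM at T6 against 261.6 and 268.5 CPM at T0. RCAN1, an inhibitor of the phosphatase calcineurin, had 1520.2 and 1803 CPM at T6 against 300.5 and 318.8 CPM at T0. The T6 levels of these abundant genes lay 3.86-fold to 7.17-fold above the T0 levels, and no library crossed between groups. HSPA8, the constitutive HSP70 chaperone, gained the most FPKM, with 1322 FPKM at T6 against 748.0 FPKM at T0. Among the losses, SLC40A1, the iron exporter ferroportin, had 206.1 FPKM at T6 against 428.0 FPKM at T0, and IGFBP5, an IGF-binding protein, had 72.6 FPKM at T6 against 208.5 FPKM at T0. Several other large losses were nuclear copies of mitochondrial genes, such as MTCO1P12, and are uncertain, because all 37 genes of the mitochondrial chromosome were listed at 0 in every library and reads may be shared with them.

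Receptor genes were more often lowered than raised. Of 29 steroid and nuclear receptors tested, 5 were called higher and 13 lower, against shares of 19.5% and 18.1% over all genes, and their median log2 fold change was -0.30. PGR, the progesterone receptor itself, had 84.4 and 110.2 CPM at T6 against 473.4 and 571.1 CPM at T0 (log2 -2.42, SE 0.14). VDR, the vitamin D receptor, went the other way, with 255.8 and 261 CPM at T6 against 130.0 and 122.8 CPM at T0 (log2 1.03, SE 0.07). All T6 libraries were below all T0 libraries for PGR and above them for VDR. NR3C1, the glucocorticoid receptor, fell by 0.68 on the log2 scale, while NR3C2, the mineralocorticoid receptor, did not pass the test (log2 -0.12, SE 0.12) and was at 0.03 without T0 replicate 1. RARA, a retinoic acid receptor, fell by 1.08, and ESRRA, an orphan receptor of energy metabolism, rose by 1.28. Of 20 co-regulators 4 were higher and 7 lower, or 4 and 4 without T0 replicate 1, and 3 and 4 without T6 replicate 2.

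Enzymes that handle steroids and retinoids were more often raised than lowered. Of 25 tested, 11 were higher (44%, against 19.5% over all genes), 2 lower (8%, against 18.1%) and 12 not called. Their median log2 fold change was 0.47. HSD11B2, which inactivates cortisol, had 14.7 and 12.9 CPM at T6 against 1.88 and 1.64 CPM at T0 (log2 2.96, SE 0.15). CYP1A1, a monooxygenase of the aryl hydrocarbon receptor pathway, had 143.6 and 134.5 CPM at T6 against 23.6 and 18.4 CPM at T0 (log2 2.73, SE 0.13). These T6 libraries lay above the T0 libraries without overlap. AKR1C3 (log2 1.44) and SRD5A1 (0.96), both of which reduce steroid hormones, also rose, and DHRS3, a retinal reductase, fell (-0.999).

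In the EGF family, receptor classes moved in opposite directions. Of 16 genes tested 8 were higher (50%, against 19.5% over all genes) and 3 lower (18.75%, against 18.1%). EGFR, the founding receptor, had 122.5 and 108.6 CPM at T6 against 24.4 and 22.1 CPM at T0 (log2 2.31, SE 0.09, adjusted p 2.17e-12 by edgeR). The 3 called lower were the other receptors: ERBB2 (log2 -0.73), ERBB3 (-0.46) and ERBB4 (-0.80). ERBB3 had 517.0 and 492.4 CPM at T6 against 740.0 and 653.0 CPM at T0. The ligand TGFA rose by 1.64 on the log2 scale and the ligand EGF by 0.91. The feedback inhibitors ERRFI1 (log2 2.02) and LRIG1 (1.55) rose as well, with LRIG1 at 403.4 and 399.9 CPM at T6 against 141.7 and 132.8 CPM at T0.

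Prolactin signalling genes moved in both directions. STAT5A, the transcription factor of the prolactin receptor, had 88.9 and 79.8 CPM at T6 against 7.97 and 6.22 CPM at T0 (log2 3.57, SE 0.10, adjusted p 1.22e-13 by edgeR). In the RANKL, WNT4 and prolactin list, which does not hold STAT5A, 2 of 13 genes were higher, STAT5B (log2 1.21) and the kinase JAK2 (1.83), 6 were lower and 5 were not called. PRLR, the prolactin receptor, had 2909 and 2533 CPM at T6 against 3992 and 5131 CPM at T0 (log2 -0.75, SE 0.11). The STAT5 target and inhibitor CISH fell by 1.68 on the log2 scale, TNFRSF11A, which encodes the RANKL receptor RANK, by 1.52, and ELF5, an alveolar transcription factor, by 0.79. The counts of this list, 15.4% higher and 46.2% lower against 19.5% and 18.1% over all genes, were 2 and 6 whichever si-control library was left out. SOCS3, a cytokine feedback inhibitor, fell by 1.36, whereas IL6ST, the shared receptor subunit gp130, had 1116 and 1101 CPM at T6 against 385.2 and 500.0 CPM at T0 (log2 1.32, SE 0.10).

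**Figure D2:**
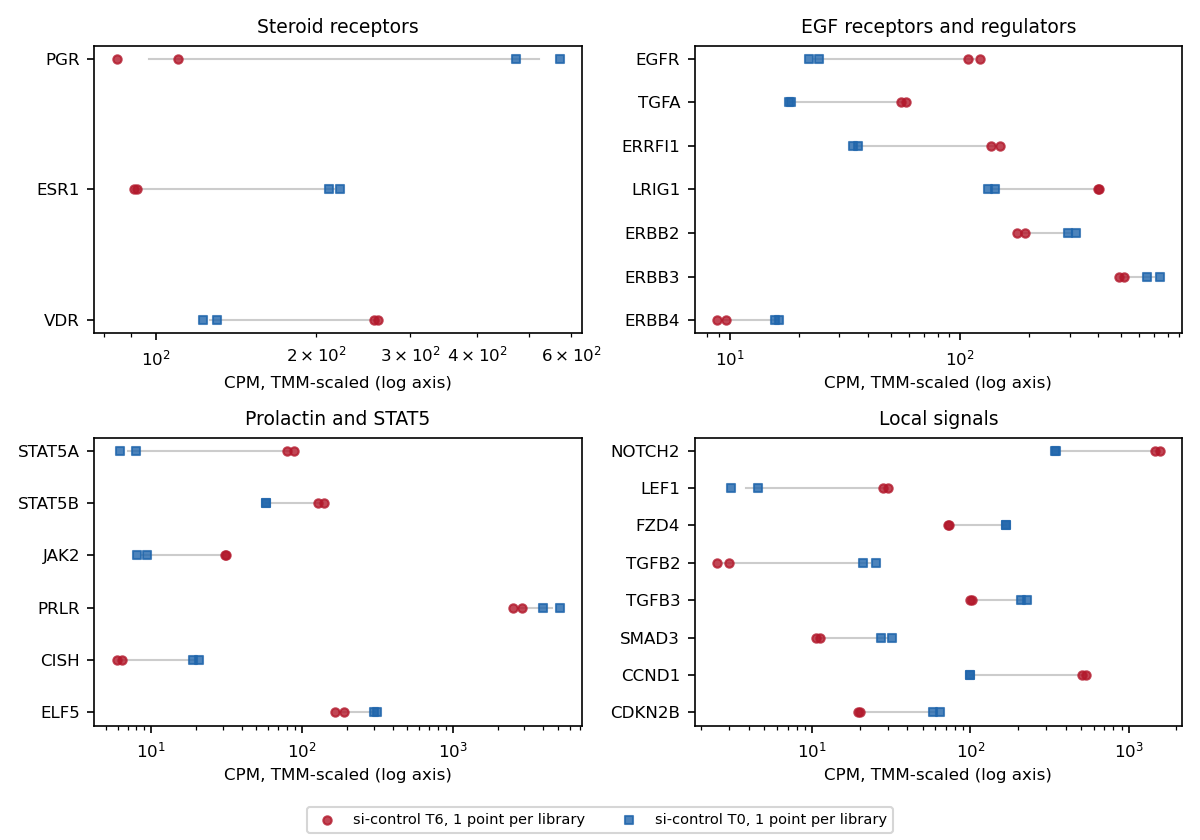
Levels of steroid receptors, EGF family genes, prolactin signalling genes and local signals, in TMM-scaled CPM on log axes, with 1 point per si-control library (T6 red circles, T0 blue squares) and a grey line joining the group means. EGFR, STAT5A, NOTCH2 and CCND1 lie higher at T6, and PGR, TGFB2 and CISH lie lower.

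Local signalling pathways held changes in both directions. NOTCH2, a NOTCH receptor, had 1571 and 1466 CPM at T6 against 340.5 and 346.7 CPM at T0 (log2 2.14, SE 0.08), and its ligand JAG1 rose by 1.65 on the log2 scale. Of 24 genes of the NOTCH list 7 were higher (29.2%) and 5 lower (20.8%). Of 31 WNT genes 9 were higher (29.0%) and 8 lower (25.8%). The shares over all genes tested were 19.5% and 18.1%. LEF1, a transcription factor of the WNT pathway, rose by 2.92, the WNT receptors FZD5 and FZD1 by 1.70 and 1.53, and the receptor FZD4 fell by 1.20. The TGF-beta family leaned down, with 5 of 31 higher and 12 lower, or 5 and 8 without either T0 replicate 2 or T6 replicate 2. TGFB2, a ligand, had 3.003 and 2.50 CPM at T6 against 20.9 and 25.5 CPM at T0 (log2 -3.07, SE 0.16). The ligand TGFB3 (log2 -1.12), the signal transducer SMAD3 (-1.45) and the receptor BMPR1B (-2.10) fell too. TGFBR3, the co-receptor betaglycan, rose and had 6.97 and 7.96 CPM at T6 against 0.878 and 0.974 CPM at T0 (log2 3.01, SE 0.16).

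Lineage transcription factors were more often lowered than raised. Of 30 HOX, TBX and other lineage factors tested, 5 were called higher (16.7%, against 19.5% over all genes) and 18 lower (60%, against 18.1%). Their median log2 fold change was -0.40. The members were chosen with earlier results of these data known, so the shares only describe this list. GRHL2, which maintains epithelial junctions, had 352.8 and 375.5 CPM at T6 against 130.1 and 106.3 CPM at T0 (log2 1.62, SE 0.08). Its relative GRHL3 had 4.84 and 5.20 CPM at T6 against 17.0 and 15.1 CPM at T0 (log2 -1.68, SE 0.10), so the paralogues moved apart. RUNX1 (log2 1.87) and ZNF703 (1.88), a transcriptional repressor amplified in some luminal tumours, rose. The luminal factors GATA3 (log2 -0.79) and FOXA1 (-1.12) fell, with FOXA1 at 199.5 and 166.2 CPM at T6 against 389.1 and 408 CPM at T0. Of 19 SOX and stem-linked factors 3 were higher and 10 lower, or 6 lower without T0 replicate 2 and 5 lower without T6 replicate 2. The median log2 fold change of this list was -0.36, with 3 members called higher and 3 called lower by at least 2-fold. SOX4, a SOX factor of progenitor cells, was among the higher ones (log2 1.70).

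Factors of the KLF, C/EBP and clock families were more often raised than lowered. The shares called higher were 47.4%, 55% and 52.9%, against 19.5% over all genes tested. Those called lower, at 21.1%, 25% and 29.4%, were also above the 18.1% over all genes, which were not matched for expression level. With a CPM of at least 1 required in 2 si-control libraries, 3385 of 12997 genes were called lower. Of 19 KLF and SP factors 9 were higher and 4 lower, or 10 and 2 without T0 replicate 2 and 7 and 2 without T6 replicate 2. KLF4, a factor of epithelial differentiation, had 119.8 and 133.1 CPM at T6 against 25.5 and 24.5 CPM at T0 (log2 2.34, SE 0.08). Of 20 C/EBP, bZIP and stress factors 11 were higher and 5 lower. CEBPD, a stress-induced C/EBP factor, had 22.8 and 35.3 CPM at T6 against 3.78 and 3.49 CPM at T0 (log2 2.997, SE 0.18). CEBPA, a factor of differentiation, had 3.66 and 12.1 CPM at T6 against 1.74 and 1.81 CPM at T0, and its log2 fold change of 2.15 was 1.04 without T6 replicate 2. Of 17 clock genes 9 were higher and 5 lower, with the repressors PER1 (log2 1.74) and CRY2 (1.06) higher and NR1D1 (-1.26) and the activator BMAL1 (-0.57) lower. DUSP1, a phosphatase that switches off MAP kinases, had 99.1 and 110.7 CPM at T6 against 12.1 and 11.4 CPM at T0 (log2 3.16, SE 0.09), and DUSP6, which acts on ERK, fell by 1.56.

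Genes of ion transport and of fuel use changed in both directions, as did all genes tested, with 19.5% higher and 18.1% lower. ATP1B1, a beta subunit of the sodium pump, had 407.4 and 376.5 CPM at T6 against 79.9 and 81.8 CPM at T0 (log2 2.28, SE 0.09), with the T6 libraries well above the T0 libraries. NEDD4L, a ubiquitin ligase that removes the sodium channel from the membrane, rose by 1.08. Over the list of 31 ion and water transport genes 11 were higher and 8 lower, or 10 and 5 without T0 replicate 1 and 10 and 3 without T6 replicate 2. Of 23 genes of fasting and fatty acid fuel use 7 were higher, 5 lower and 11 not called, with a median log2 fold change of -0.01, and 3 were lower without T0 replicate 1 or without T6 replicate 2. Among them PDK4, which inhibits pyruvate oxidation, had 16.4 and 17.0 CPM at T6 against 2.60 and 2.94 CPM at T0 (log2 2.59, SE 0.11), and CPT1A, which admits fatty acids to mitochondria, fell by 0.94. PLIN2, a lipid droplet coat protein, rose by 1.04. Of 19 genes of lipid droplets and glycerolipids 7 were higher and 3 lower, HILPDA, a droplet protein that inhibits lipolysis, among the higher ones (log2 2.02), and 0 to 2 were lower whichever si-control library was left out. Of 19 amino acid transporters 11 were higher and 4 lower, led by SLC43A1 (log2 1.81), a carrier of large neutral amino acids.

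Genes of ribosome assembly, polyamine and purine synthesis and protein folding were more often raised than lowered, beside 19.5% higher and 18.1% lower over all genes. Of 49 ribosome biogenesis genes tested 30 were higher and 1 lower, with a median log2 fold change of 0.35, and 23 were higher without T6 replicate 2. NOP16 and RRP9, nucleolar proteins of ribosome assembly, rose by 0.93 each. Of 27 polyamine and purine genes 16 were higher and 2 lower, or 10 and 1 without T6 replicate 2, 15 and 1 without T0 replicate 2 and 13 and 1 without T6 replicate 1. SRM, spermidine synthase, had 100.3 and 99.0 CPM at T6 against 52.0 and 49.2 CPM at T0 (log2 0.98, SE 0.09), while SAT1, which breaks polyamines down, rose by 1.53. Of 38 chaperones 18 were higher and 1 lower, with 12 higher without either T0 replicate 2 or T6 replicate 2, 14 without T0 replicate 1 and 15 without T6 replicate 1. They included DNAJB4 (log2 3.16) and DNAJB1 (1.33), co-chaperones of HSP70. HSPA1A and HSPA1B rose by 0.85 and 1.05 but are near-identical copies, so their separate values are uncertain. Of 56 cytosolic ribosomal proteins 4 were called, all higher (7.14%, below the 19.5% over all genes), and at most 2 whichever of the 4 libraries was left out.

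The G1 genes held changes in both directions. CCND1, cyclin D1, had 536.9 and 507.3 CPM at T6 against 100.1 and 98.9 CPM at T0 (log2 2.39, SE 0.08, adjusted p 5.91e-13 by edgeR). CDKN2B, an inhibitor of the kinases that cyclin D1 activates, had 19.5 and 19.9 CPM at T6 against 57.7 and 64.5 CPM at T0 (log2 -1.63, SE 0.09). CCND1 was thus high and CDKN2B low in both T6 libraries. CCNE1, cyclin E1, rose by 0.46 and CDC25A, a phosphatase that activates CDKs, by 0.91. Of 27 G1 genes tested 11 were higher (40.7%, against 19.5% over all genes), 5 lower (18.5%, against 18.1%) and 11 not called. Their median log2 fold change was 0.20. The counts were 11 and 3 without T0 replicate 2 and 9 and 2 without T6 replicate 2.

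Adhesion, cytoskeletal and surface genes were divided, as were all genes tested, with 19.5% higher and 18.1% lower. Of 36 small GTPase regulators 13 were higher and 12 lower, and of 28 integrin and focal adhesion genes 7 were higher and 8 lower. VCL, vinculin, which ties integrins to actin, had 782.5 and 822.4 CPM at T6 against 327.3 and 307.3 CPM at T0 (log2 1.34, SE 0.06), whereas the integrin subunits ITGA2 (log2 -1.06) and ITGA5 (-0.85) fell. PKP1, a desmosomal plakophilin, had 4.46 and 4.25 CPM at T6 against 0.125 and 0.188 CPM at T0 (log2 4.79, SE 0.28). Among matrix and protease genes MMP15, a membrane-bound metalloproteinase, rose by 2.93 and FN1, fibronectin, fell by 0.69. F3, which encodes tissue factor, rose by 5.602 and F2R, a thrombin receptor, by 3.72, while of the whole coagulation and complement list of 20 genes 5 were higher and 3 lower, with 1 lower without T0 replicate 1 or without T6 replicate 1. Glycosylation enzymes were also divided, with 15 of 39 higher and 11 lower. The sialyltransferase ST3GAL4 rose by 2.53 and the fucosyltransferase FUT8 fell by 1.53.

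**Figure D3:**
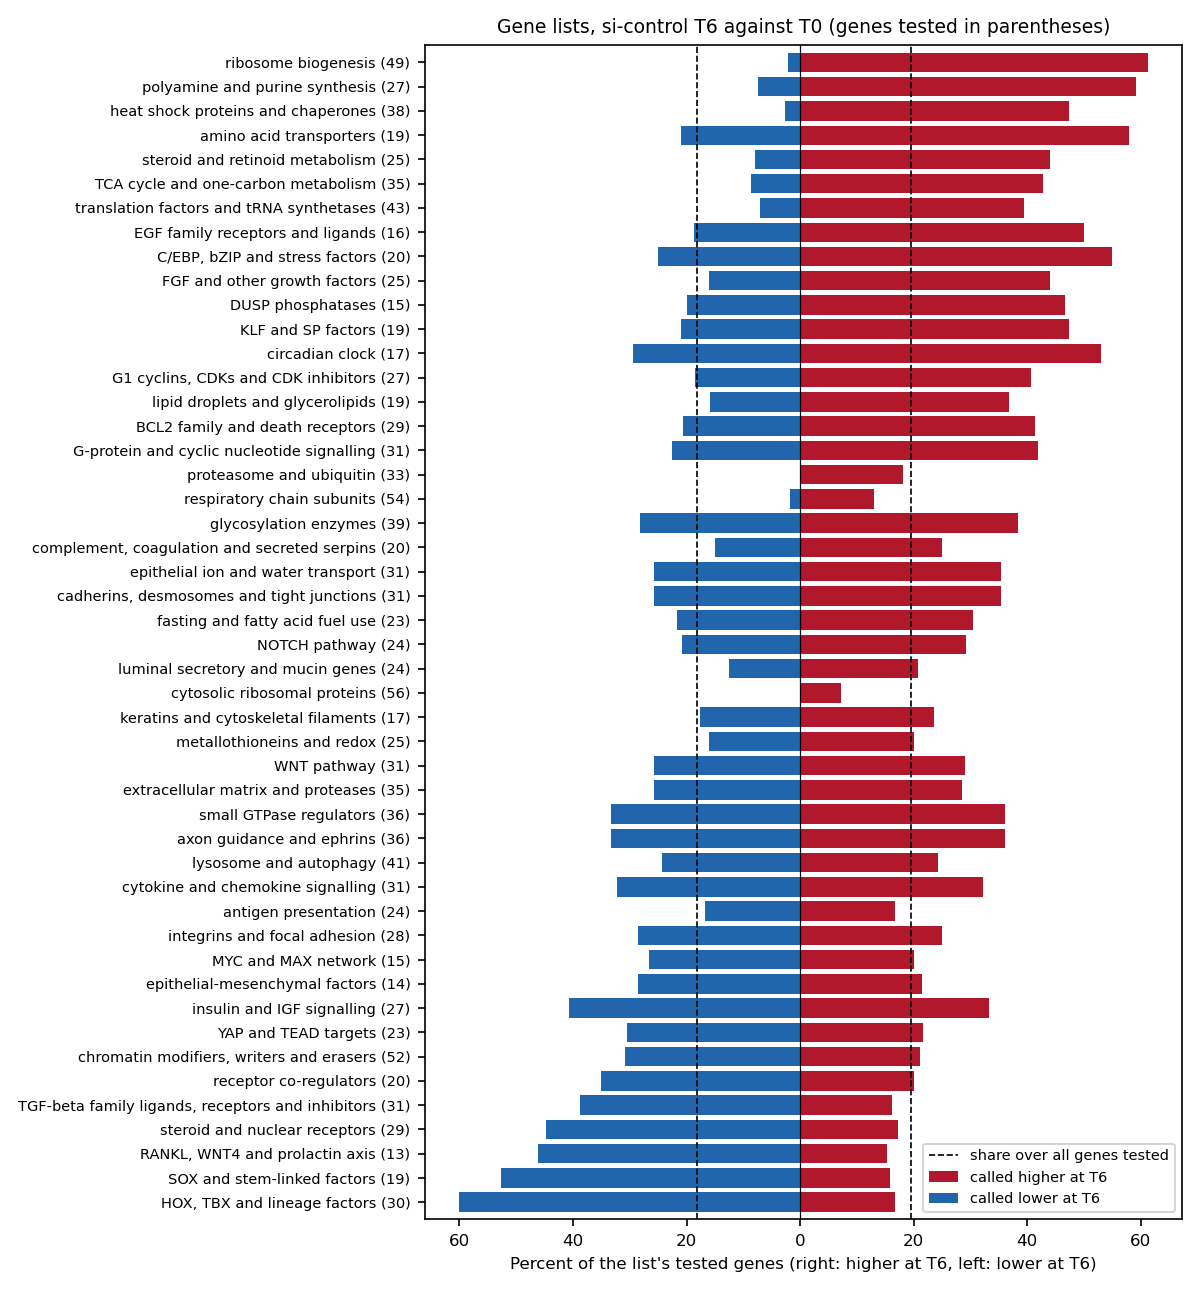
Share of each list's tested genes called higher at T6 (red, to the right) and lower at T6 (blue, to the left), in percent, with the number tested in parentheses and the shares over all genes tested as dashed lines at 19.5% and 18.1%. The lists of cell type markers are not drawn. List members were chosen with earlier results of these data known, and the lists were not matched for expression level. Among the lists drawn, ribosome biogenesis lies at one end, with 61.2% higher and 2.04% lower, and the HOX, TBX and lineage factors at the other, with 16.7% higher and 60% lower.

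The same genes were followed under the other siRNAs. All 30 of the largest rises were called higher in si-BRG1, si-CBX3 and si-FOXA1 cells. Of the 30 largest falls, 30 were called lower in si-BRG1 cells, 30 in si-CBX3 cells and 22 in si-FOXA1 cells, where 24 had the same sign. No share over all genes in those cells is reported here to set beside the shares that follow. Of all 1014 genes raised by at least 2-fold, 85.9% were called higher in si-BRG1, 81.7% in si-CBX3 and 70.2% in si-FOXA1 cells. Of the 784 lowered by at least 2-fold, 70.4%, 72.4% and 46.6% were called lower in those cells. CLDN1, for example, had a log2 fold change of -2.22 in si-control against -1.93 in si-BRG1, -1.90 in si-CBX3 and 0.82 in si-FOXA1 cells. A test of the si-control response minus the mean of the other 3 called 2799 genes (14.9%), 1540 with a higher and 1259 with a lower value in si-control, and 1221 in all without T6 replicate 2 or 1593 without T0 replicate 2.

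**Figure D4:**
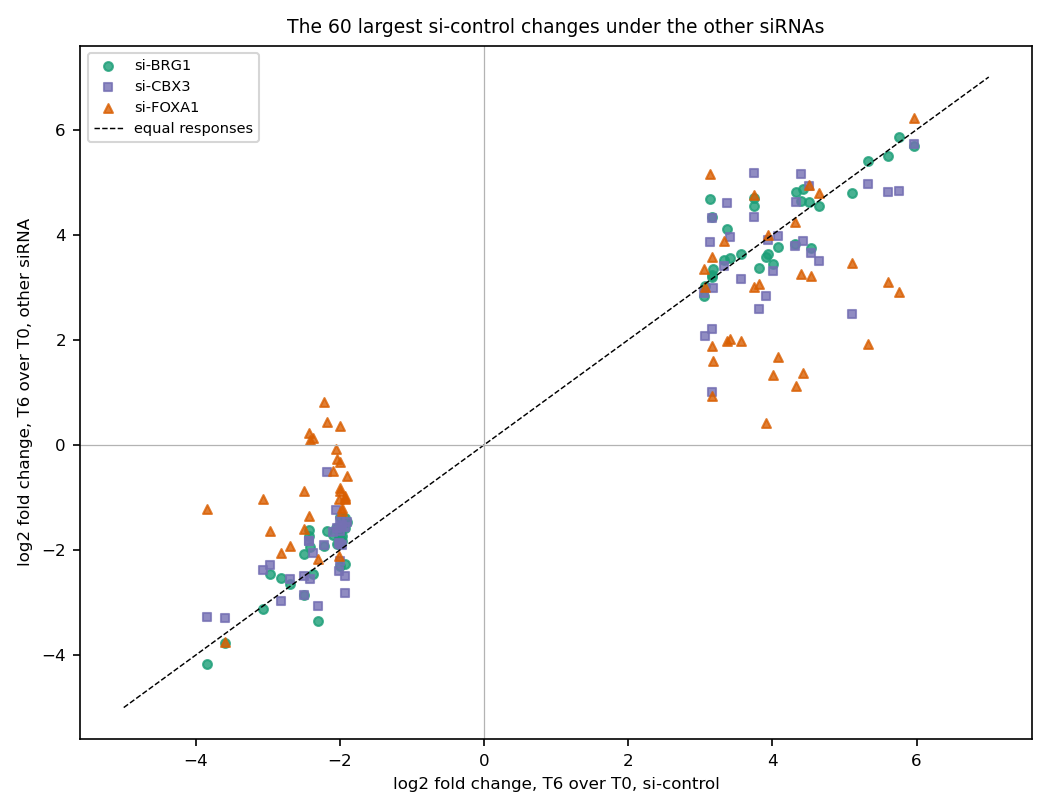
Log2 fold change, T6 over T0, of the 60 genes with the largest si-control changes, in si-control cells (horizontal axis) and under each other siRNA (vertical axis), with 1 point per gene and siRNA. All points of the rises lie above 0, and 6 of the falls lie above 0 in si-FOXA1 cells.

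The libraries without siRNA, 1 per time, gave no test but the same directions for most genes. Of the genes raised by at least 2-fold in si-control cells and present in those files, 93.0% of 963 moved the same way (95% Wilson interval 91.3 to 94.5, counting error only). Of those lowered, 82.0% of 726 moved the same way (interval 79.0 to 84.6). The shares of all genes moving each way in those files are not reported here. IL20RA had 42.6 RPKM at T6 against 4.53 RPKM at T0 there, and PLK2 had 20.6 RPKM at T6 against 88.6 RPKM at T0. PRLR went against its si-control direction, with 282.4 RPKM at T6 against 198.0 RPKM at T0. All 28 of the largest rises and all 29 of the largest falls found in those files kept their direction, 27 of the rises and 19 of the falls by at least 2-fold. Over all genes changed by at least 2-fold in si-control cells, 34.6% of the rises and 10.7% of the falls reached 2-fold there, with median log2 ratios of 0.62 and -0.17 on the log2(RPKM + 1) scale, which understates the change of low genes. Among genes with a mean of at least 1 RPKM, 65.1% of the rises and 30.5% of the falls did so.

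BRG1, the ATPase of the SWI/SNF remodeller, was mapped in libraries whose labels state no siRNA, with 6180 peaks at 30 min of hormone and 2288 at 0 min, 1 library each. A peak at 30 min lay within 5 kb of the 5 prime end of 14.1% of genes called higher (95% Wilson interval 12.96 to 15.2), 14.7% of genes called lower (13.6 to 15.9) and 7.83% of genes not called (7.36 to 8.33). Genes raised by at least 2-fold had a share of 17.1% (14.9 to 19.5) and genes lowered by at least 2-fold 11.1% (9.09 to 13.5). For peaks at 0 min the shares were 1.53% of genes called higher, 3.38% of genes called lower and 1.58% of genes not called. The classes were not matched for expression level, and its part in these shares was not tested. Among the 60 largest changes, 7 rises and 6 falls had a peak at 30 min within that distance, PGR among the falls at 298 bases. The share over all genes tested was 10.3%.

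**Figure D5:**
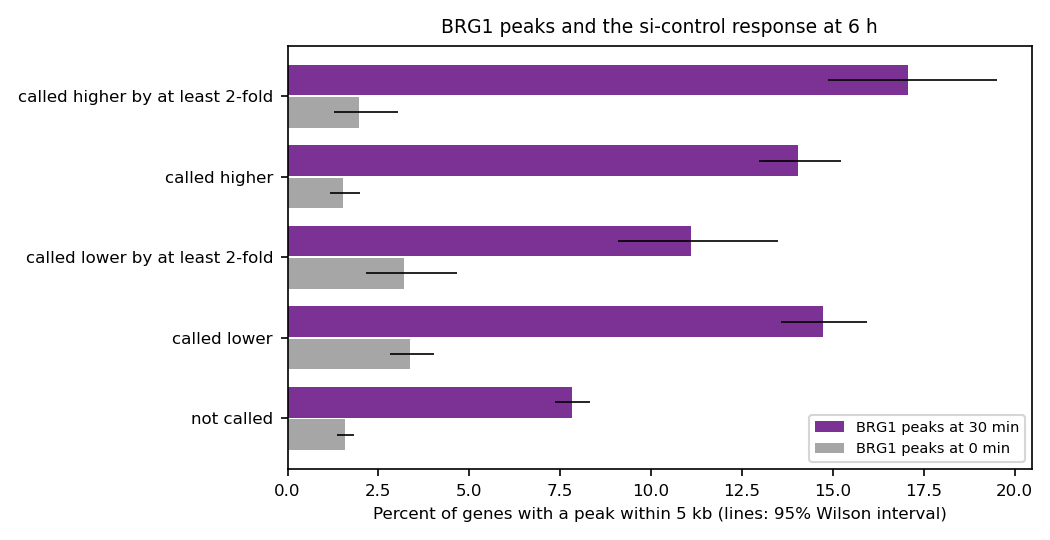
Percent of genes with a BRG1 peak within 5 kb of the 5 prime end, for peaks at 30 min (purple) and 0 min (grey), by how the gene was called at 6 h in si-control cells. Lines are 95% Wilson intervals, and the 2-fold classes are contained in the classes below them.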

How the data were processed

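The 16 siRNA files hold fragment counts per gene, as the authors deposited them, not normalized. The counter was featureCounts 1.4.6-p2 in reverse-stranded mode on hg19 gene models, per the file headers, and STAR and Trimmomatic are named in the submitters' processing notes. The 2 files without siRNA hold deposited RPKM values per transcript, which were summed per gene, with no quantification tool given in the sources used here. The peak lists hold a deposited score per peak, made by the authors with settings not given in the sources used here.

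Genes were filtered with filterByExpr, scaled by TMM and fitted in edgeR 4.0.16 (R 4.3.3) with 1 mean for each of the 8 groups, with two-sided tests on 8 residual degrees of freedom. DESeq2 1.42.0 was an alternative, and the fit was tested on simulated data. Ratios without siRNA used log2 of RPKM plus 1. Symbols were matched for 88.9% of genes tested. Promoters are from RefSeq, and with no hg19 genome used here, peaks were placed by the 5 prime ends of the hg19 gene models. Members and gene lists were chosen with earlier results of these data known. Genes named are the markers, the 30 largest rises and falls (mean log2 CPM of at least 3, groups not overlapping), the 12 largest FPKM gains and losses, up to 6 called members per list (mean log2 CPM of at least 1), and the 6 largest differences from the other siRNAs in each direction. ERBB2, ERBB3, NR3C2 and the cell type markers were added outside that rule, after their values were seen. The hexamer search and the interferon list were also added after the data were seen. Some genes that the rule names are not reported here.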

Additional observations from a re-analysis of the deposited data

Results flagged for a closer look

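For 13 of the genes named, the si-control response differed from the mean response of the other siRNAs. The test was edgeR's quasi-likelihood test of that difference (Benjamini-Hochberg adjusted p at most 0.0017). Apart from the marker FKBP5, these genes were named for having the largest such differences in each direction. The choice thus favoured genes that pass, and the p is no separate evidence. Over all genes tested, 2799 of 18806 (14.9%) were called in this test. The response was more positive in si-control cells for 7 of the 13 genes. The difference, in log2 units, was 1.895 for RASD2, a Ras-like G protein, 1.774 for CCDC85B, a co-repressor, 1.634 for FRMD3, a cytoskeletal adaptor, 1.610 for CITED4, a co-activator, 1.532 for ID3, a bHLH inhibitor, 1.525 for SCNN1G and 0.813 for FKBP5. CCDC85B had 9.16 and 17.7 CPM in the si-control T6 libraries against 4.97 and 5.30 CPM in the T0 libraries, so the T6 libraries differed from each other. CITED4 had a si-control log2 fold change of 2.72, which was 2.31 without T6 replicate 2 and 3.04 without T6 replicate 1. ID3 did not pass the test in si-control cells itself (log2 0.25) and had negative log2 fold changes under the other siRNAs, at -0.58 in si-BRG1, -1.47 in si-CBX3 and -1.81 in si-FOXA1.

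The response was more negative in si-control cells for the other 6. The difference was -1.606 for PTGER3, -1.444 for XYLT1, a xylosyltransferase, -1.436 for TRIM22, -1.357 for IL1R1, an interleukin receptor, -1.352 for EDARADD, a death-domain adaptor, and -1.348 for GASK1B. EDARADD, GASK1B and XYLT1 had positive log2 fold changes in si-FOXA1 cells (1.67, 2.39 and 1.64) against negative ones in si-control cells (-1.22, -0.76 and -1.46). TRIM22 rose in all 4 conditions, by 3.13 in si-control, 4.68 in si-BRG1, 3.87 in si-CBX3 and 5.16 in si-FOXA1 cells. Its si-control rise was larger without T0 replicate 1, the library marked by interferon-stimulated genes. The part of that library in the TRIM22 difference was not tested.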

How the results depend on the processing

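DESeq2, DESeq2 size factors in edgeR, no filter on low counts and the 4 si-control libraries alone kept the numbers of genes called within 1.5 times. With a CPM of at least 1 required in 2 si-control libraries, 640 genes rose and 451 fell by at least 2-fold. Leaving out 1 si-control library gave 2726 to 3178 genes higher, 2238 to 2860 lower, and 1221 to 2559 whose response differed from the other siRNAs, each time fewest without T6 replicate 2. The causes were not tested. With a replicate block within each siRNA, 3720 genes were higher and 3437 lower. Over 9723 genes the deviations of same-numbered T6 and T0 libraries correlated at -0.06 in si-control, 0.13 in si-CBX3, 0.30 in si-FOXA1 and 0.31 in si-BRG1 cells. Not every pair was above 0.1, and the numbers were not taken as pairing the samples. A BRG1 peak at 30 min lay within 1 kb of 11.7% of genes called higher, 12.1% of those called lower and 6.14% of those not called, and with only the higher-scoring peaks within 5 kb of 8.76%, 9.05% and 4.63%. Uncalled genes with a log2 fold change near 0 or very few counts changed sign. COL1A1 was at -0.0167 under that CPM filter and at -0.0851 to 0.119 with 1 library left out, LYZ at -0.69 to 0.88, NR3C2 at -0.264 to 0.0334 and KRT14, with at most 0.0471 CPM in any library, at -1.23 to 3.35. In some of the 53 lists, the direction held by more called genes changed, became a tie or arose from a tie. These lists were 13 without T0 replicate 1, 9 without T0 replicate 2, 8 without T6 replicate 1 and 13 without T6 replicate 2. Of the 378 genes eligible to be named, 37 lost their call without T6 replicate 2, 28 without T0 replicate 1, 21 without T0 replicate 2 and 18 without T6 replicate 1.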
